A study of Homo sapiens with 9 samples.

Results

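CD24, SIGLEC10, CD47, SIRPA, SIRPB1 and LILRB1 are 6 genes for cell-surface ligands and receptors that set how readily a macrophage engulfs another cell. They were taken by symbol from the 16586 genes measured by RNA-seq in Z138, an established human cell line grown out of a mantle cell lymphoma, which is a cancer of B cells. The 6 were selected on their roles in these pathways after their levels in the 9 libraries, CD24 and SIRPA above all, had been seen, so the levels chose them and are given as a description without a p-value. The 9 libraries formed 3 groups of 3. The rescue carried the SOX11 knockout together with SOX11 put back (genotype label SOX11KO+SOX11Rescue), the knockout was labelled SOX11KO, and the wild type carried neither change. SOX11 is a transcription factor that most mantle cell lymphomas express and normal B cells do not. The labels leave unsaid whether an edited line is 1 clone, how SOX11 was put back and whether the libraries of a group came from separate cultures, so the spread given below is that between these libraries.

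CD24 is a short, heavily glycosylated protein held in the membrane by a GPI anchor, found on B cells and their precursors and on many tumour cells. Its sialic acid bearing sugars are bound by SIGLEC10, a receptor of macrophages and B cells whose cytoplasmic tail recruits the phosphatases PTPN6 and PTPN11 and thereby restrains engulfment. CD47 acts in the same way through SIRPA, a receptor of macrophages with a similar inhibitory tail, while SIRPB1 resembles SIRPA outside the cell but signals through the activating adaptor TYROBP and does not bind CD47. LILRB1 is an inhibitory receptor for MHC class I molecules. In lymphoma the ligands are usually studied on the tumour cell and the receptors on the macrophage. Here both were measured in the tumour cells alone.

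Levels are normalized counts, which were recovered from the authors' log2 table as described under the processing and rest on an estimated 30810000 to 40790000 reads per library. One read was worth 0.8575 to 1.132 normalized counts, and 3 reads, the floor used here, came to 2.57 to 3.4. As a check of the labels, SOX11 (ENSG00000176887.7, plus strand of chromosome 2, from 5692667 to 5701385) had 12818, 13849 and 12715 normalized counts in rescue batches 1, 2 and 3, 901, 1335 and 862 in the knockout, and 3800.4, 3845 and 3003 in the wild type. The groups did not overlap. The knockout held 29.1% of the wild-type SOX11 transcript level and the rescue 369.85% of it. All 8 markers of B cells and mantle cell lymphoma passed the detection filter. Their summed level was 4745 to 4963 CPM in the rescue, 4623 to 4988 in the knockout and 4972 to 5420 in the wild type, most of it from the cyclin CCND1. CCND1 was called 1.19-fold lower in the rescue than in the wild type (limma adjusted p = 0.04115), a call kept in 7 of 16 alternative settings, with adjusted p up to 0.331 without batch 1. PAX5, a B cell transcription factor, was called 1.65-fold higher in the rescue than in the knockout (limma adjusted p = 0.0231), kept in 11 of 16 settings, with adjusted p up to 0.159 without batch 3. The kinase gene BLK fell 1.8-fold in the rescue against the knockout (limma adjusted p = 0.000477), in all 16 settings. Because each library is bulk RNA, fewer cells with a transcript and less of it per cell cannot be told apart.

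CD24 (ENSG00000272398.6, chromosome 6, 106969831 to 106975627, minus strand, positions here and below from GENCODE 29 on GRCh38) had 1051, 1224 and 1244 normalized counts in rescue batches 1, 2 and 3. It had 7.05, 5.19 and 4.29 in the knockout and 1910, 1641 and 1671 in the wild type. All 3 knockout libraries were far below every other library, and all 3 rescue libraries were below every wild-type library. The group means were 1173 ± 106 in the rescue, 5.51 ± 1.41 in the knockout and 1741 ± 147 in the wild type (SD, n = 3 each). The knockout held 0.317% of the wild-type level, a level 316-fold lower, and within batches 1, 2 and 3 the knockout was 271-fold, 316-fold and 389.6-fold lower. The rescue was 213-fold above the knockout (149-fold, 236-fold and 290.1-fold within the batches) and 1.48-fold below the wild type (1.82-fold, 1.34-fold and 1.34-fold). Thus in the rescue SOX11 stood above its wild-type level and CD24 below it. The knockout values rest on an estimated 8.01, 4.94 and 3.79 reads, each above the floor of 3 reads, so the folds that involve the knockout carry the counting error of 16.7 reads in all.

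**Figure D1:**
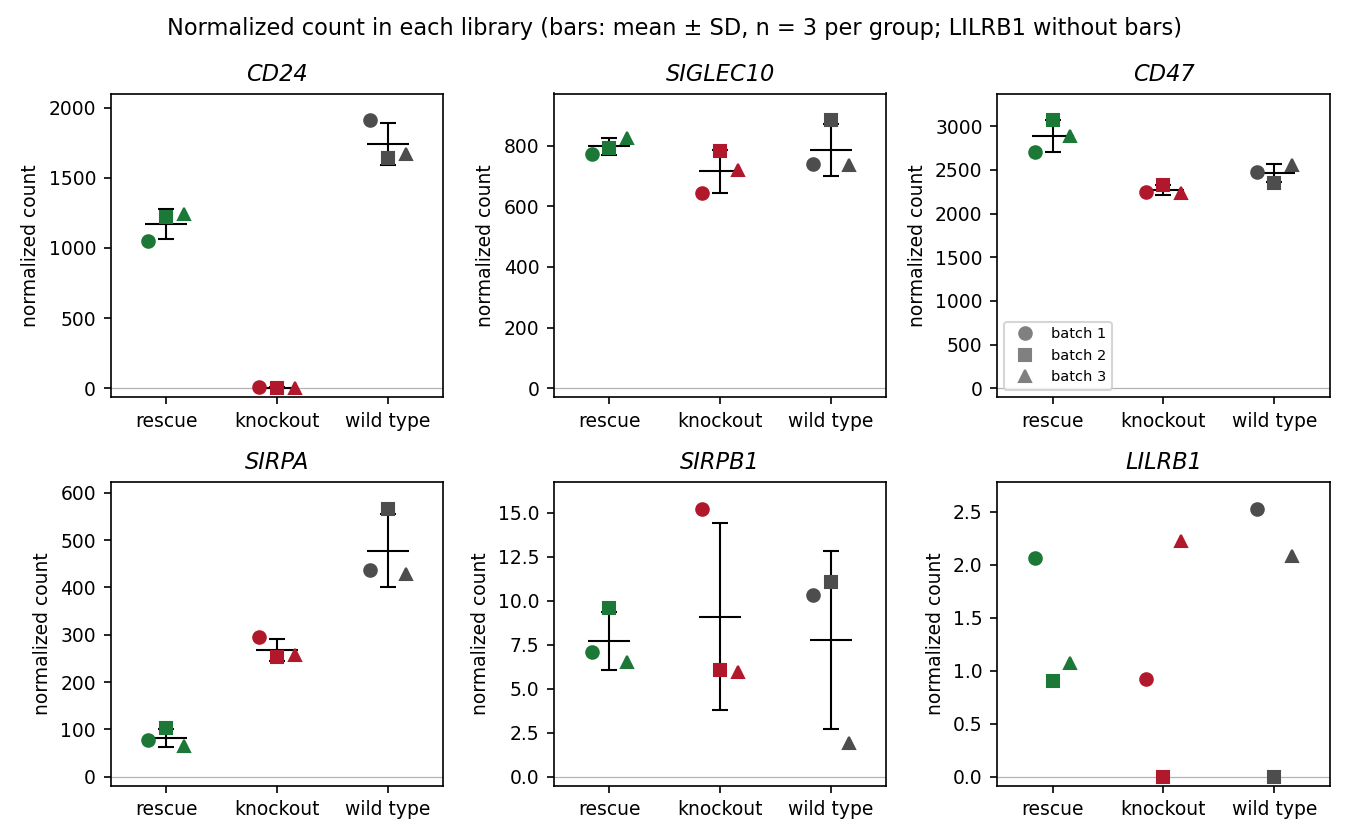
Normalized count (vertical axes, linear) of the 6 checkpoint genes in each library of the rescue, the knockout and the wild type; the shape marks the batch, and the bars are the mean ± SD of 3 libraries, left out for LILRB1. CD24 is near 0 in the knockout (4.29 to 7.05), SIRPA is lowest in the rescue (64.9 to 102.8), higher in the knockout (253.7 to 295.7) and highest in the wild type (427.7 to 566.1), and the groups of SIGLEC10 overlap.

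RefSeq start sites of CD24 give 3 upstream windows of 250 bases on the minus strand (GRCh38.p14). They are shown because on the deposited log2 scale no other gene tested differed as much between the SOX11 knockout and the wild type. They were searched on both strands for the core of SOX-type binding motifs, spelled ACAAAG or ACAATG. Either spelling was found in 21.2% of all 35116 such windows in the table (ACAAAG in 13.7% and ACAATG in 9.3%), and in 2 of the 3 windows of CD24. The windows of CD24 belong to the same gene, and the outer and middle ones overlap. They are therefore not independent, and nothing is read from their share. A match describes the letters and shows no binding. The window of the outermost start site, chr6:106975628-106975877, held no match, and none of its bases lay in an annotated exon.
CD24 outer window: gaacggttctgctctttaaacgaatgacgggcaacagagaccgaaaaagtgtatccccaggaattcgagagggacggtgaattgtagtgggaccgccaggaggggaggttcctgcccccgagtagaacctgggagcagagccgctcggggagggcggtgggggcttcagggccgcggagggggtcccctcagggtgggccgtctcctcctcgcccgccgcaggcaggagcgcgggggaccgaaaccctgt
The middle window overlaps an exon of the longer transcript over 162 of its bases, and a stretch of 30 bases around its ACAAAG (capitals), which begins 41 bases upstream of the start site, lies at chr6:106975489-106975518.
CD24 middle stretch: ggcgctcacagaACAAAGcaagggcttcgg
The innermost window, chr6:106974040-106974289, is intronic for the longer transcripts and held ACAAAG (capitals) 101 bases upstream of its start site.
CD24 inner window: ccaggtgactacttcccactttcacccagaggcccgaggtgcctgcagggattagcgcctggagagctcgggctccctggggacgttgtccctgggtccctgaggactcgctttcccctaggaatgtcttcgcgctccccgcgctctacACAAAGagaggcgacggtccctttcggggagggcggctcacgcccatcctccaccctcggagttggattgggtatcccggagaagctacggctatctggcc
The single CD47 window and the single SIGLEC10 window held neither spelling, and LILRB1 had a match in 1 of its 3 windows. SIRPA and SIRPB1 were not matched in the table.

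CD47 (ENSG00000196776.16, chromosome 3, 108043094 to 108091862, minus strand), the other ligand, had 2708, 3068 and 2884 normalized counts in the rescue, 2246, 2333 and 2236 in the knockout, and 2478, 2354 and 2561 in the wild type. The 3 groups did not overlap, with the knockout lowest and the rescue highest, but the gaps were small. The means were 2887 ± 180.2 in the rescue, 2271.5 ± 53.3 in the knockout and 2464 ± 104 in the wild type (SD, n = 3 each). The knockout thus held 92.2% of the wild-type level (ratios of 0.906, 0.991 and 0.873 within batches 1, 2 and 3), and the rescue was 1.27-fold above the knockout and 1.17-fold above the wild type. Unlike CD24, CD47 remained an abundant transcript in the knockout, and the rescue lay above the wild type in each batch (1.09-fold, 1.3-fold and 1.13-fold).

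SIGLEC10 (ENSG00000142512.15, chromosome 19, 51410021 to 51417803, minus strand), the receptor for CD24, was transcribed by the lymphoma cells themselves. It had 772.5, 793.3 and 826.1 normalized counts in the rescue, 642.6, 782.8 and 719.2 in the knockout, and 737.65, 883.2 and 735.1 in the wild type. Each group overlapped the other 2. The means were 797 ± 27.0 in the rescue, 715 ± 70.2 in the knockout and 785 ± 84.8 in the wild type (SD, n = 3 each), so the knockout stood at 0.91 of the wild type, the rescue at 1.115 of the knockout and at 1.02 of the wild type, all differences within the range of the libraries.

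SIRPA (ENSG00000198053.11, chromosome 20, 1894167 to 1940592, plus strand), the receptor for CD47, did not follow the order of SOX11. It had 78.8, 102.8 and 64.9 normalized counts in the rescue, 295.7, 253.7 and 256.4 in the knockout, and 437.6, 566.1 and 427.7 in the wild type. The groups did not overlap: every rescue library was lower than every knockout library, and these were lower than every wild-type library. The means were 82.2 ± 19.2 in the rescue, 268.6 ± 23.5 in the knockout and 477 ± 77.2 in the wild type (SD, n = 3 each). The knockout was 1.78-fold below the wild type (1.48-fold, 2.23-fold and 1.67-fold within batches 1, 2 and 3). The rescue was 3.27-fold below the knockout (3.75-fold, 2.47-fold and 3.95-fold) and 5.81-fold below the wild type (5.55-fold, 5.51-fold and 6.59-fold). SOX11 was lowest in the knockout and highest in the rescue, whereas SIRPA was highest in the wild type and lowest in the rescue.

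SIRPB1 (ENSG00000101307.16, chromosome 20, 1563521 to 1620061, minus strand) stayed under 1 CPM in all 9 libraries. It had 7.08, 9.61 and 6.50 normalized counts in the rescue, 15.2, 6.07 and 5.97 in the knockout, and 10.3, 11.06 and 1.92 in the wild type. The groups overlapped, and the highest library was in the knockout and the lowest in the wild type. LILRB1 had 2.07, 0.903 and 1.07 normalized counts in the rescue, 0.919, 0 and 2.23 in the knockout, and 2.53, 0 and 2.08 in the wild type, all at or under the floor of 3 reads, so no fold is given. The LILRB1 row carries the identifier ENSG00000276452.4, which is not among the primary genes of GENCODE 29, where LILRB1 is ENSG00000104972.15 (chromosome 19, 54617158 to 54637528, plus strand). The value therefore covers only that row and may miss reads assigned to the primary gene.

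Several of these genes share sequence with other genes, which matters because reads of 50 bases were divided among transcripts. Of the 31-base words in the GENCODE 29 transcripts of SIRPA, 21.01% also occur in other genes, 13.05% in SIRPB1. For SIRPB1 the shared part was 23.31%, for SIGLEC10 33.17% (13.04% with AC008750.2 and 10.41% with SIGLEC11) and for LILRB1 35.32%. CD24 shared 9.9%, with 4.88% in its processed copy CD24P4, and CD47 shared 1.53%. The part of such sharing in the levels was not tested. The labels name a stranded and another kit without tying either to a library, so reads from overlapping antisense genes cannot be told apart.

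Levels can be compared between genes once divided by length, here the longest coding transcript of GENCODE 29. In the rescue the mean normalized count per kb was 552 for CD47, 467 for CD24, 256 for SIGLEC10, 18.0 for SIRPA and 2.38 for SIRPB1. In the knockout it was 435 for CD47, 230 for SIGLEC10, 58.8 for SIRPA, 2.80 for SIRPB1 and 2.19 for CD24. In the wild type it was 693 for CD24, 472 for CD47, 253 for SIGLEC10, 104 for SIRPA and 2.40 for SIRPB1. On this measure CD24 was thus the highest of these genes in the wild type. Before division by length CD47 was above CD24 there (2464 against 1741 normalized counts), and which transcripts were in use was not examined. In the knockout CD24 shared the bottom of the order with SIRPB1, and the ranges of CD24 (1.71 to 2.80) and SIRPB1 (1.84 to 4.70) overlapped. The other neighbours in each order did not overlap: in the rescue, for example, CD47 ranged from 518 to 587 and CD24 from 418 to 495 per kb.

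**Figure D2:**
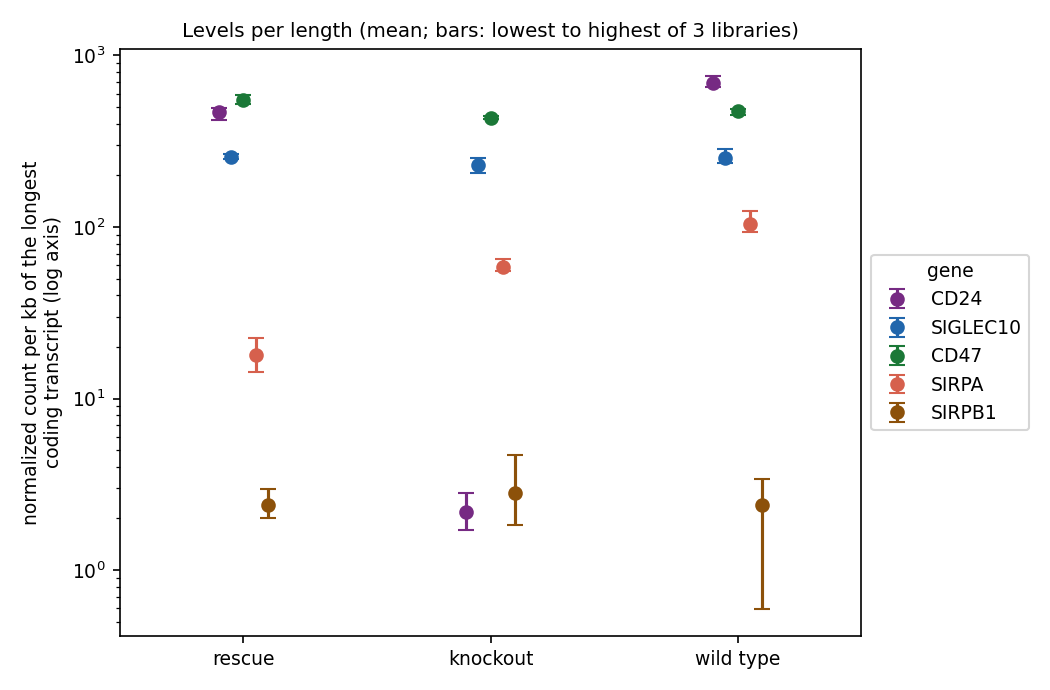
Mean normalized count per kb of the longest coding transcript (vertical axis, log) for 5 genes in the rescue, the knockout and the wild type; bars run from the lowest to the highest of 3 libraries. CD24 stands at 467 in the rescue, 2.19 in the knockout and 693 in the wild type, while CD47 and SIGLEC10 stay between 230 and 552.

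To place the 6 genes among all others, limma was fitted to the deposited log2 values of the 11542 genes with at least 1 CPM in at least 3 libraries, and a gene was called at an adjusted p of at most 0.05. CD24, SIGLEC10, CD47 and SIRPA were among these, CD24 only through the rescue and wild-type libraries, and SIRPB1 and LILRB1 were not. In the knockout against the wild type 2 of the 4 were called, CD24 and SIRPA, both lower, where 12.7% of all genes tested were called (5.36% higher and 7.37% lower). In the rescue against the knockout 3 were called, CD24 and CD47 higher and SIRPA lower, against 22.1% of all genes (11.5% higher and 10.7% lower). Between the rescue and the wild type 2 were called, CD24 and SIRPA, both lower, against 4.07% of all genes (2.30% higher and 1.78% lower); with batch as a term (the replicate block) CD47 was called too, higher in the rescue. CD24, CD47 and SIRPA had groups that did not overlap in each of the 3 comparisons, as did 29.5%, 41.8% and 20.8% of all genes in the order just given. The genes were picked with these contrasts known, so nothing is read from these counts.

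On the deposited log2 scale, where a difference of low counts is compressed, CD24 differed by -2.49 (SE 0.0626) between the knockout and the wild type, the largest difference of the 11542 genes. Between the rescue and the knockout it differed by 2.10, second in size to SOX11 itself, and between the rescue and the wild type by -0.39, at rank 183. SIRPA differed by -0.36, -0.51 and -0.87 in the same comparisons, at ranks 609, 408 and 16. CD47 differed by -0.09, 0.27 and 0.18, at ranks 5209, 1501 and 1271. SIGLEC10 differed by -0.08, 0.09 and 0.01, at ranks 5944, 6077 and 10099. The 3 comparisons share groups in pairs, so these values are given side by side and not as independent results.

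**Figure D3:**
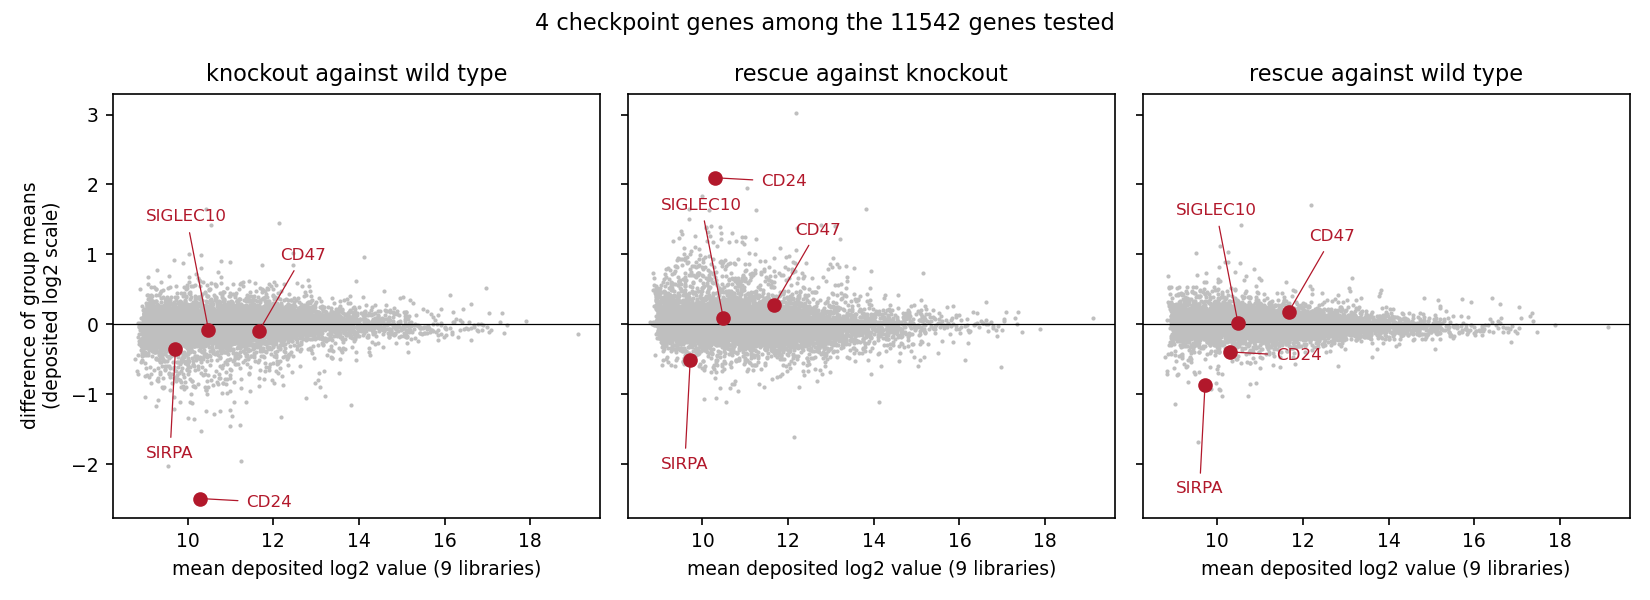
Difference of group means on the deposited log2 scale (vertical axis) against the mean deposited log2 value over 9 libraries (horizontal axis) for the 11542 genes tested (gray) and 4 checkpoint genes (red). CD24 lies at -2.49 in the knockout against the wild type and at 2.10 in the rescue against the knockout, and SIRPA lies lowest in the rescue against the wild type (-0.87).

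The genes whose deposited values followed CD24 most closely over the 9 libraries were listed by Pearson's r, as a description of libraries that fall into 3 groups. They were the kinase HIPK2 (r = 0.9904), the exchange factor PLEKHG4B (0.9889), the exchange factor ARHGEF10L (0.9883), the zinc finger factor INSM1 (0.9882), the phosphodiesterase PDE9A (0.9872) and the carrier SLC25A29 (0.9869). HIPK2 averaged 2559 normalized counts in the rescue, 427 in the knockout and 3405 in the wild type, INSM1 1964, 667.5 and 2168, and PDE9A 121 and 135 in the rescue and the wild type while it was listed at 0 in the knockout. Running the other way were the aminoacylase ACY3 (r = -0.9931), the chemokine-scavenging receptor ACKR4 (-0.9834) and BTBD11 (-0.9796), with ACY3 at 585 in the rescue, 1949 in the knockout and 375 in the wild type. Closest to SIRPA were EPSTI1 (r = 0.9782), the mitochondrial thiolase ACAT1 (0.9666), the ubiquitin ligase MIB2 (0.9601) and the glutathione transferase GSTM1 (0.9597). Each of these 4 was highest in the wild type and lowest in the rescue, as with ACAT1 at 871, 1222 and 1552 in the rescue, the knockout and the wild type.

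The other genes of these pathways were taken from 11 lists written from general knowledge, with 165 genes in all, of which 102 were tested. Adjusted p-values below are from limma over all 11542 genes, and folds are ratios of mean normalized counts. In the knockout against the wild type 12 of the 102 rose and 6 fell, 17.6% of them, where 12.7% of all genes tested were called. With the replicate block 26 rose and 9 fell, and 2481 of all 11542 genes were called. The rescue against the knockout had 14 higher and 20 lower, 33.3% against 22.1% of all genes. In the rescue against the wild type 5 rose and 1 fell, 5.88% against 4.07%. The replicate block gave 11 higher and 5 lower there, and called 930 of all genes. These shares are a description of the lists, with no test between them and the background. The median difference over the 102 genes was 0.04, -0.02 and 0.01 on the deposited log2 scale in these comparisons, where the median of all genes was 0.00482, -0.00646 and -3.17e-05.

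**Figure D4:**
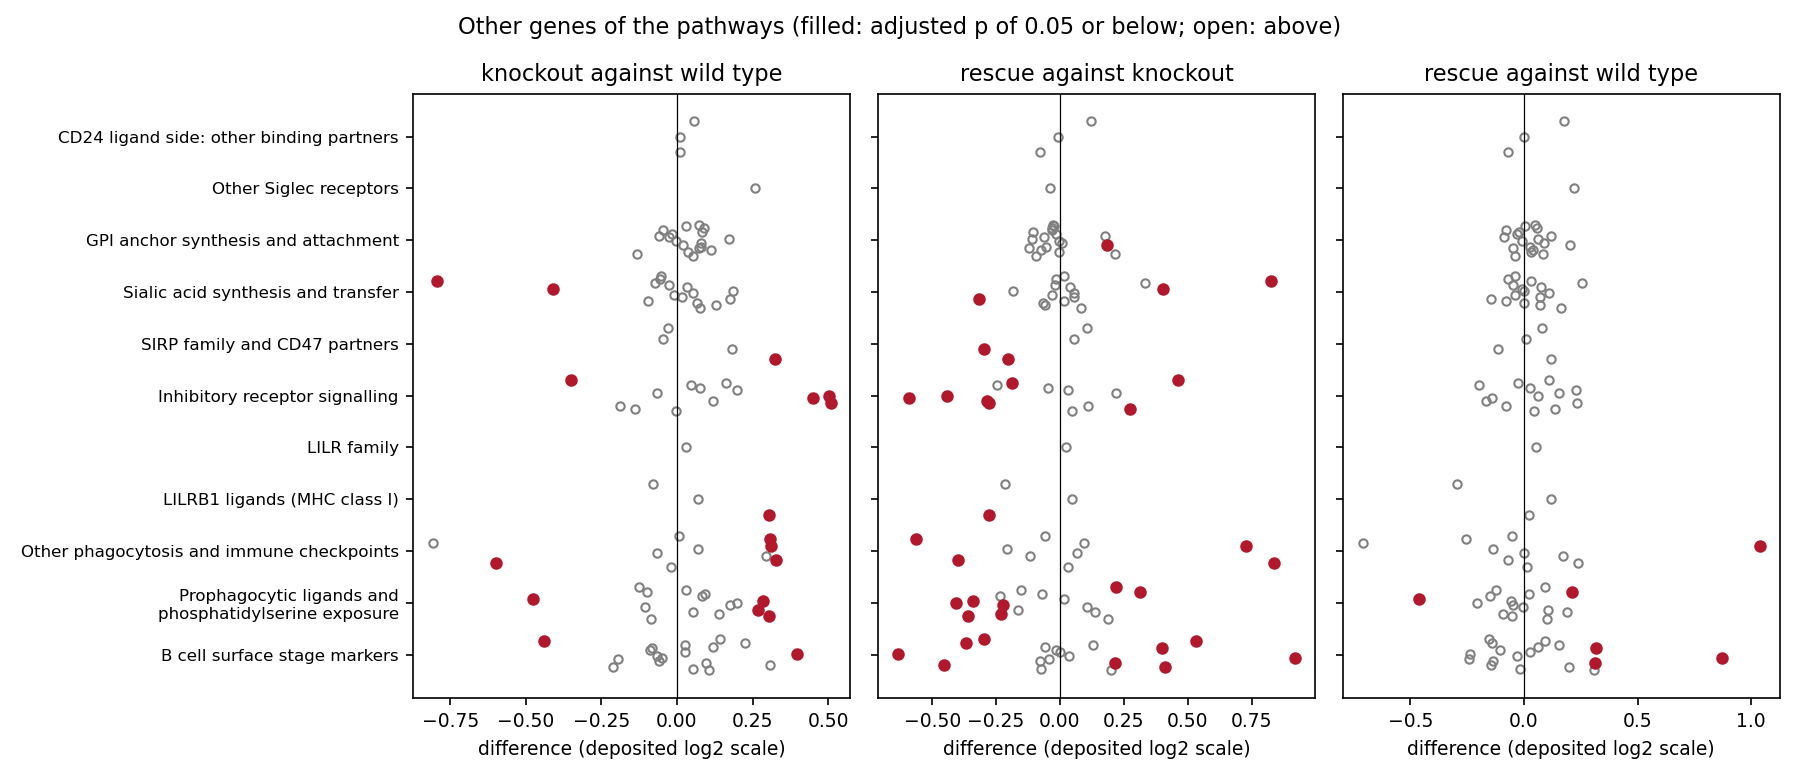
Difference of group means on the deposited log2 scale (horizontal axes) for each tested gene of 11 pathway lists (rows), in 3 comparisons; filled red points have an adjusted p of at most 0.05 by limma and open points do not. No gene of the lists of other CD24 partners, other Siglecs or LILR receptors is filled, and the rescue against the wild type has 6 filled points.

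CD24 needs a GPI anchor to reach the surface and sialic acid on its sugars to be bound by SIGLEC10. Over all genes tested 12.7% were called in the knockout against the wild type and 22.1% in the rescue against the knockout. Of 18 tested genes of GPI anchor synthesis limma called 0 in the knockout against the wild type, where 1 had an unadjusted p under 0.05, and 1 rose in the rescue against the knockout, PIGC, a subunit of the first enzyme of the pathway, to 932 ± 65.2 normalized counts in the rescue, against 752 ± 32.75 in the knockout (1.239-fold, adjusted p = 0.0477). PIGC kept this call in only 3 of 16 alternative settings, and its adjusted p ranged up to 0.271 without batch 1. Of 16 tested genes of sialic acid synthesis and transfer 2 fell in the knockout against the wild type. ST6GAL1, which adds sialic acid in the linkage that the B cell Siglec CD22 prefers, fell 1.86-fold to 5046 ± 631 in the knockout, against 9367 ± 1891 in the wild type (adjusted p = 0.00294). It stood at 9570 ± 1767 in the rescue, 1.9-fold above the knockout (adjusted p = 0.0015). ST3GAL2, a sialyltransferase of O-linked sugars and glycolipids, fell 1.48-fold to 1428 ± 68.6 in the knockout, against 2119 ± 225.7 in the wild type (adjusted p = 0.00304), and rose 1.47-fold to 2105 ± 207 in the rescue (adjusted p = 0.00224). The synthase NANS, which makes sialic acid phosphate, fell 1.36-fold to 1391 ± 63.5 in the rescue, against 1893 ± 78.5 in the knockout (adjusted p = 0.00185). Without batch 3 the adjusted p in the knockout against the wild type was 0.067 for ST6GAL1 and 0.1 for ST3GAL2, and ST3GAL2 in the rescue against the knockout was at 0.0637.

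A list of 5 proteins that bind CD24 or share P-selectin with it had 3 tested genes, and limma called 0 of them in any comparison, with 1 at an unadjusted p under 0.05 in the rescue against the wild type. Over all genes tested 12.7% were called in the knockout against the wild type. The share was 22.1% in the rescue against the knockout and 4.07% in the rescue against the wild type. With 3 genes tested, nothing is read from this count. SELPLG, itself a ligand of P-selectin, averaged 285 ± 22.1 in the rescue, 229 ± 40.6 in the knockout and 204 ± 7.77 in the wild type. Of 14 other Siglecs 1 was tested, CD22, a brake on B cell receptor signalling, with 431 ± 63.6 normalized counts in the rescue, 459 ± 101.65 in the knockout and 306 ± 73.5 in the wild type. CD22 missed the threshold in the knockout against the wild type (adjusted p = 0.0909) and in the rescue against the wild type (adjusted p = 0.254), and passed it with the replicate block (adjusted p = 0.00941 and 0.0413).

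Among 4 tested partners of CD47 and the SIRP family 1 rose in the knockout against the wild type. In the rescue against the knockout 2 fell. These comparisons called 12.7% and 22.1% of all genes tested. ITGB3, the beta chain of an integrin that CD47 associates with, rose 3.16-fold to 109 ± 32.4 in the knockout, against 34.5 ± 9.52 in the wild type (adjusted p = 0.00463), and fell 1.93-fold to 56.5 ± 12.1 in the rescue (adjusted p = 0.0329). QPCTL, the enzyme that forms the pyroglutamate with which CD47 binds SIRPA, fell 1.51-fold to 436 ± 31.2 in the rescue, against 656 ± 48.1 in the knockout (adjusted p = 0.00836). The wild type had 517 ± 89.0, which the knockout exceeded 1.27-fold without passing the threshold (adjusted p = 0.102, and 0.0262 with the replicate block). ITGB3 lost the first call without batch 1 (adjusted p = 0.0965) and the second without rescue replicate 1 or 3, knockout replicate 1 or 2, or any 1 batch (adjusted p = 0.0713 to 0.207). QPCTL lost its call without batch 1 (adjusted p = 0.0663) or batch 3 (adjusted p = 0.0979).

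Of 13 tested genes that carry the signal of inhibitory receptors 3 rose and 1 fell in the knockout against the wild type. In the rescue against the knockout 2 rose and 5 fell. The shares called were 30.8% and 53.8%, against 12.7% and 22.1% of all genes tested. The phosphatase PTPN6 averaged 2672 ± 930.75 in the rescue, 3260.2 ± 958 in the knockout and 3384 ± 1923 in the wild type, and PTPN11 11649 ± 409, 12097 ± 1114 and 11415 ± 424, with no call in any comparison. INPP5D, the lipid phosphatase SHIP of the same receptors, rose 1.62-fold to 2193 ± 118 in the knockout, against 1356 ± 96.8 in the wild type (adjusted p = 0.000149), and fell 1.52-fold to 1444 ± 77.9 in the rescue (adjusted p = 0.000255). FGR, a Src-family kinase of myeloid cells that is also found in B cells, rose 2.23-fold to 540 ± 61.4 in the knockout, against 242 ± 55.3 in the wild type (adjusted p = 0.000719), and fell 1.5-fold to 359 ± 41.0 in the rescue (adjusted p = 0.0181). SYK, the kinase of the B cell receptor, fell 1.32-fold to 4581 ± 219.5 in the knockout, against 6053 ± 586 in the wild type (adjusted p = 0.00403), and rose 1.44-fold to 6577 ± 200.4 in the rescue (adjusted p = 0.000443). The adaptor GRB2 fell 1.237-fold in the rescue against the knockout (adjusted p = 0.000922) and the adaptor DOK1 rose 1.55-fold (adjusted p = 0.0182). SYK in the knockout lost its call without batch 1 (adjusted p = 0.107) or batch 3 (adjusted p = 0.0602). FGR in the rescue lost its call without rescue replicate 1 or 2, knockout replicate 3 or any 1 batch (adjusted p = 0.0584 to 0.0776), and DOK1 without rescue replicate 2 or 3, knockout replicate 2, or batch 2 or 3 (adjusted p = 0.0632 to 0.129).

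SIRPA and FGR are also genes of monocytes and macrophages, so markers of those cells were read beside them. Of 16 such markers 9 had a row and 2 of these were tested, CD68 and MS4A7. The summed level of the 9 rows was 4.92 to 7.10 CPM in the rescue, 6.07 to 8.98 in the knockout and 3.84 to 4.82 in the wild type. CD68, a lysosomal protein, rose 1.84-fold to 99.4 ± 18.8 normalized counts in the knockout, against 54.0 ± 8.28 in the wild type (adjusted p = 0.0399), a call kept in 7 of 15 alternative settings, with adjusted p up to 0.254 without batch 1. MS4A7 had 40.0 to 123.5 in the rescue, 56.1 to 115 in the knockout and 30.5 to 63.7 in the wild type. No row was at 0 in all 9 libraries. CD14 ranged from 0 to 3.55 in the rescue, from 0.568 to 2.18 in the knockout and from 0 to 1.95 in the wild type, and CSF1R from 0.361 to 8.82, from 0 to 1.84 and from 0 to 0.352. The ranges of LYZ and ITGAM, which were not tested, lay above the wild type in both other groups. LYZ had 26.7 to 33.9 in the rescue, 20.7 to 25.8 in the knockout and 10.3 to 12.7 in the wild type, and ITGAM 10.4 to 24.2, 17.7 to 25.2 and 4.95 to 7.97. AIF1 had 9.01 to 14.0, 14.2 to 20.3 and 13.5 to 17.0 in the same order, CD163 6.58 to 11.6, 5.65 to 18.5 and 8.36 to 11.12, and FCN1 3.62 to 8.06, 6.15 to 15.4 and 3.54 to 7.53. T cell markers summed to 24.8 to 31.4 CPM in the rescue, 40.3 to 42.8 in the knockout and 17.8 to 20.4 in the wild type, with CD4 and CD3E called higher in the knockout than in the wild type (CD3E not without batch 1 or batch 3) and CD3D at 0.624 to 4.75 normalized counts throughout. CD4 and CD3E were also called higher in the rescue than in the wild type (CD4 not without batch 3, CD3E in 7 of 15 alternative settings). CD4 was called lower in the rescue than in the knockout. CD3E, CD3G, CD4, CD5 and CD8B had their highest means in the knockout. CD8A and CD3D, which were not tested, CD28 and TRAC had their lowest means there. CD28 had 40.6 to 125.1 normalized counts in the rescue, 22.5 to 32.2 in the knockout and 16.4 to 57.3 in the wild type, without a call. CD8A had 2.83 to 5.08 normalized counts in the rescue, 0 to 2.92 in the knockout and 10.7 to 12.4 in the wild type. TRAC had 27.3 to 94.6, 0 to 10.5 and 4.29 to 54.6 in the same order. It was called higher in the rescue than in the knockout, a call kept in 10 of 15 alternative settings. NK cell markers summed to 13.2 to 16.8 CPM in the rescue, 10.2 to 13.3 in the knockout and 3.50 to 4.29 in the wild type. The part of these markers in the checkpoint levels was not tested.

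For LILRB1 the other receptors of its family and its ligands were examined. Of 12 LILR family genes 1 was tested, the inhibitory receptor LILRB4, with 569 ± 78.1 normalized counts in the rescue, 549.9 ± 48.0 in the knockout and 531 ± 96.2 in the wild type and adjusted p-values of 0.801 to 0.864. Of 3 tested MHC class I genes 1 was called, in the knockout against the wild type and in the rescue against the knockout. The background there was 12.7% and 22.1% of all genes tested. B2M, the invariant light chain, rose 1.236-fold to 44094 ± 432 in the knockout, against 35685 ± 3086 in the wild type (adjusted p = 0.0255), and fell 1.21-fold to 36332 ± 3683 in the rescue (adjusted p = 0.0247). B2M lost the first call without any 1 knockout replicate, wild-type replicate 1 or 2, or batch 1 or 2 (adjusted p = 0.0641 to 0.15). It lost the second without rescue replicate 1 or 2, any 1 knockout replicate, or batch 1 or 2 (adjusted p = 0.0647 to 0.213). The rows of HLA-B and HLA-F, like that of LILRB1, carry identifiers outside the primary GENCODE 29 genes.

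Of 10 tested genes of other phagocytosis and immune checkpoints 3 rose and 1 fell in the knockout against the wild type. In the rescue against the knockout 2 rose and 2 fell, and 1 rose in the rescue against the wild type. Called were 40%, 40% and 10%, against 12.7%, 22.1% and 4.07% of all genes tested. CD276, a B7-family ligand, ranged from 234.8 to 304.9 in the rescue, from 9.31 to 29.2 in the knockout and from 123 to 229.6 in the wild type. It fell 8.41-fold in the knockout against the wild type (adjusted p = 0.000356) and rose 13.4-fold in the rescue against the knockout (adjusted p = 2.19e-05), as CD24 was lowest in the knockout and high in both other groups. LGALS9, the galectin that binds HAVCR2, ranged from 1063 to 1217 in the rescue, from 428 to 508 in the knockout and from 274 to 288 in the wild type. It rose 1.64-fold in the knockout against the wild type (adjusted p = 0.00315), 2.45-fold in the rescue against the knockout (adjusted p = 4.93e-06) and 4.01-fold in the rescue against the wild type (adjusted p = 1.84e-06). Its order over the groups was thus the reverse of that of SIRPA. PECAM1, an adhesion receptor with an inhibitory tail, rose 1.66-fold to 436 ± 84.8 in the knockout, against 262 ± 45.0 in the wild type (adjusted p = 0.0142), and fell 2.81-fold to 155 ± 8.50 in the rescue (adjusted p = 0.000203). CD48, a ligand of the SLAM family, rose 1.32-fold in the knockout against the wild type (adjusted p = 0.0168) and fell 1.4-fold in the rescue against the knockout (adjusted p = 0.00378). CD274, the ligand of PDCD1, was low, with 39.6 ± 20.8 in the rescue, 33.7 ± 14.0 in the knockout and 36.05 ± 7.84 in the wild type. In the knockout against the wild type LGALS9 lost its call without batch 1 (adjusted p = 0.0523) or batch 3 (adjusted p = 0.0699), PECAM1 without wild-type replicate 1 or batch 1 or 3 (adjusted p = 0.0573 to 0.131) and CD48 without knockout replicate 1 or 3, wild-type replicate 1, or batch 1 or 3 (adjusted p = 0.0526 to 0.222). CD48 in the rescue against the knockout was at 0.0819 without batch 1.

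Engulfment also depends on signals that invite it, such as calreticulin and exposed phosphatidylserine. Of 15 tested genes of this kind 3 rose and 1 fell in the knockout against the wild type. In the rescue against the knockout 2 rose and 5 fell, and 1 rose and 1 fell in the rescue against the wild type. That is 26.7%, 46.7% and 13.3% of them, against 12.7%, 22.1% and 4.07% of all genes tested. ANXA1, a phosphatidylserine-binding protein, rose 2.97-fold to 99.3 ± 15.1 in the knockout, against 33.4 ± 13.4 in the wild type (adjusted p = 0.00254), and fell 4.04-fold to 24.6 ± 2.71 in the rescue (adjusted p = 0.000563). ICAM3, which on dying cells tethers macrophages, fell 1.82-fold to 491 ± 66.5 in the knockout, against 896 ± 42.5 in the wild type (adjusted p = 0.000351). It stayed at 500.2 ± 38.8 in the rescue, 1.79-fold below the wild type (adjusted p = 0.00123). The scramblase PLSCR3 rose 1.76-fold to 345 ± 27.1 in the rescue, against 195 ± 23.1 in the knockout (adjusted p = 0.00155). It was called 1.45-fold above the wild type (adjusted p = 0.0484), a call kept in 1 of 16 alternative settings, with adjusted p up to 0.366 without batch 3. In the rescue against the knockout the chaperones CANX and HSPA5 fell 1.34-fold and 1.28-fold (adjusted p = 0.000796 and 0.0102) and ANXA5 fell 1.2-fold (adjusted p = 0.00719). HSPA5 rose 1.23-fold in the knockout against the wild type (adjusted p = 0.0377). CALR, the calreticulin gene, which the naming rule does not reach, had 26109 ± 1045 in the rescue, 30618 ± 1406 in the knockout and 27045 ± 2119.9 in the wild type. CALR is 1 of the 5 that fell in the rescue against the knockout (1.17-fold, adjusted p = 0.0265), a call kept in 10 of 16 alternative settings, with adjusted p up to 0.162 without batch 1. Without batch 1 the adjusted p was 0.0598 for ANXA1 in the knockout, 0.0546 for ICAM3 in the rescue against the wild type, 0.0964 for HSPA5 and 0.0739 for ANXA5 in the rescue against the knockout. ANXA5 was at 0.0627 without batch 3, and HSPA5 in the knockout lost its call in 7 of 16 settings, with adjusted p up to 0.288 without batch 1.

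CD24 is also a marker of B cell stage, so 18 tested surface genes of that kind were read beside it. In the knockout against the wild type 1 rose and 1 fell, 2 of 18, where 12.7% of all genes were called. This count depends on the model. With the replicate block CD37 was called lower there too, and CD38 and TNFRSF13B higher, where 2481 of all 11542 genes were called. For the rescue against the knockout 5 rose and 4 fell, 50% against 22.1% of all genes, and in the rescue against the wild type 3 rose, 16.7% against 4.07%. TNFRSF13C, the BAFF receptor of mature B cells, fell 1.74-fold to 508 ± 35.5 in the knockout, against 886 ± 34.2 in the wild type (adjusted p = 0.000436), and rose 1.94-fold to 985 ± 91.8 in the rescue (adjusted p = 7.16e-05). FCER2, the low-affinity IgE receptor CD23, rose 1.63-fold to 884 ± 21.7 in the knockout, against 544 ± 107 in the wild type (adjusted p = 0.00404), and fell 2.31-fold to 382 ± 39.7 in the rescue (adjusted p = 0.000106). The tetraspanin CD9 was called in both comparisons of the rescue, at 1539 ± 172 in the rescue, 539 ± 81.9 in the knockout and 575 ± 83.5 in the wild type, 2.85-fold above the knockout (adjusted p = 1.44e-05) and 2.67-fold above the wild type (adjusted p = 0.000103). IL4R rose 1.54-fold in the rescue against the knockout (adjusted p = 0.00131), CD37 rose 1.94-fold (adjusted p = 0.00455) and CD38 fell 1.41-fold (adjusted p = 0.00584). Without batch 3 CD37 was at 0.0775, CD38 at 0.116 and FCER2 in the knockout at 0.0722, and FCER2 was at 0.056 without batch 1.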

How the data were processed

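RNA-seq of polyadenylated RNA from Z138 cells gave 9 libraries, 3 per group, grouped by the labels. The submitters' processing notes name DESeq2 1.24.0 and kallisto 0.46.1, with FastQC 0.11.9 and Trimmomatic 0.40 beside R 4.3.2, and the build GRCh38.p13. The deposited log2 values are named log CPM but are on the scale of a variance-stabilizing transform: all libraries share the minimum 8.5985, and inverting the closed form with the constant 387.6 gave low values within 0.05 of whole multiples of 1 read for 83.7% to 98.5% of the values of single-transcript genes. The inverse gave normalized counts, and each library's share gave CPM. Depth (30810000 to 40790000 reads) is an estimate, and floors of 3 reads cover counting error only.

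The deposited log2 values of all 9 libraries were fitted with limma 3.58.1 under R 4.3.3 (a mean per group, trended prior variance, two-sided, adjusted by Benjamini and Hochberg over 11542 genes with at least 1 CPM in at least 3 libraries, threshold 0.05). The test had been planned for log2 CPM and was run on the variance-stabilized values, with the filter on the recovered CPM. The 6 genes and the lists were chosen with earlier results of these data known. The text names, for each list, up to 6 called genes with the smallest adjusted p, and the genes most like CD24 (6 highest, 3 lowest) and SIRPA (4). 1 gene that the rule reaches is not reported here. A gene outside this rule that is named was chosen after its values were seen. The labels give a batch equal to the replicate number, so numbers pair the libraries, and same-numbered deviations correlated at 0.187 to 0.51. Alternatives were the replicate block, other filters and pseudocounts (1 and 0.25), median centring, 2-group fits and leaving out each library or batch. Python 3.11.15 and matplotlib 3.10.9 were used.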

Additional observations from a re-analysis of the deposited data

How the results depend on the processing

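With the replicate block 2481 genes (pathway lists: 35) were called in the knockout against the wild type, in place of 1470 (18), and 930 (16) in the rescue against the wild type, in place of 470 (6); no call of a pathway gene was lost under it. Leaving out batch 1 or batch 3 gave 575 or 574 genes (9 and 9 of the lists) in the knockout against the wild type, and 1167 or 993 (22 and 19), in place of 2556 (34), in the rescue against the knockout. In the rescue against the wild type 146, 249 and 111 genes (2, 3 and 3) were called without batches 1, 2 and 3. Leaving out 1 library gave 938 to 1395 genes (14 to 23) in the knockout against the wild type, 1738 to 2050 (25 to 29) in the rescue against the knockout and 230 to 374 (3 to 6) in the rescue against the wild type. Fewer libraries entered these fits. Log2 ratios of mean normalized counts moved by more than the spread of the within-batch ratios as follows. In the knockout against the wild type CD24 was at -8.61 in batch 3 (all batches -8.30), SIGLEC10 at -0.032 in batch 3 and between -0.206 and -0.043 with 1 library left out (-0.14), CD47 at -0.013 in batch 2 (-0.12) and SIRPA at -1.16 in batch 2 (-0.83). In the rescue against the knockout CD24 was at 7.22 in batch 1 (7.73), SIGLEC10 at 0.019 in batch 2 (0.16), CD47 at 0.27 in batch 1 (0.35) and SIRPA at -1.30 in batch 2 (-1.71). In the rescue against the wild type CD24 was at -0.86 in batch 1 (-0.57), SIGLEC10 at -0.16 in batch 2 (0.02), CD47 at 0.38 in batch 2 (0.23) and SIRPA at -2.72 in batch 3 and between -2.731 and -2.393 with 1 library left out (-2.54). The cause was not tested. At this depth the LILRB1 row, whose identifier lies outside the primary GENCODE 29 genes, could not be told from 0. It may miss reads of the primary gene. CD24 in the knockout rests on few reads.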
